A study of Mus musculus with 18 samples.

Results

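The genes described here encode 10 proteins of the triad, the junction at which a skeletal muscle fibre turns the electrical signal of its membrane into release of stored calcium, or of the store-operated calcium entry that refills the store: *Cacna1s*, *Cacnb1*, *Cacng1*, *Stac3*, *Ryr1*, *Trdn*, *Jph1*, *Jph2*, *Stim1* and *Orai1*. They were chosen by name, as rows of the array annotated with 1 symbol only and that symbol among these, with 1 row per gene (that of the highest mean over all arrays). All 10 had a row, of 20259 genes tested in all, and only *Jph2* had a second row. The series holds 18 Affymetrix Mouse Exon 1.0 ST arrays of quadriceps RNA from male mice aged 10 weeks, with 3 biological replicates in each of 6 groups. The groups were *F66;Dysf-/-* mice, which carry the follistatin transgene and lack dysferlin; *F66* mice, which carry the transgene with dysferlin intact; *Dysf-/-* mice that received ACVR2B/Fc into the peritoneum once a week from 6 weeks of age (4 doses of 10 mg/kg, or 200 ug); *Dysf-/-* mice; *wt* mice given the same injections; and *wt* mice. The groups without injection are labelled as having no treatment. All mice had the C57BL/6 background. *F66* drives *Fst* from a myosin light chain promoter in skeletal muscle and sits on the Y chromosome, so that only males were studied, and ACVR2B/Fc is a soluble protein that joins the outer domain of an activin receptor, type IIB, to an antibody Fc domain. Follistatin made in the fibre and the injected receptor both bind myostatin and related ligands, which limit muscle growth. The sources do not say how the *Dysf-/-* allele was made or whether an array held RNA from 1 mouse.

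In a skeletal muscle fibre the action potential runs inward along the transverse tubules. There the dihydropyridine receptor, a voltage-gated calcium channel, senses the voltage and opens the ryanodine receptor of the facing sarcoplasmic reticulum through direct mechanical coupling, and the calcium released starts contraction. Junctophilins hold the facing membranes together, triadin ties the release channel to calsequestrin inside the store, and STIM1 and ORAI1 let calcium in from outside when the store runs low. Dysferlin, the protein missing in *Dysf-/-* mice, takes part in repair of the fibre membrane and is also found at transverse tubules.

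Values below are log2 signals after robust multi-array averaging (RMA) by the authors, so a difference of 1 is a 2-fold change. They are tested between groups for 1 gene at a time, and levels of single genes are not ranked against each other. Where genes are set side by side, it is by their changes or by values relative to a mean. Marker signals are averaged or summed over a list. Differences were tested with limma over all 18 arrays, and a gene "passed" where its p, adjusted by Benjamini and Hochberg across the 20259 genes of that comparison, was under 0.05. *Dysf* itself read 6.76 to 6.92 in *F66;Dysf-/-* arrays, 6.95 to 7.10 in ACVR2B/Fc-injected *Dysf-/-* arrays and 6.76 to 6.90 in *Dysf-/-* arrays, against 8.48 to 8.91 in the 9 arrays with dysferlin intact, which is the order the labels give. Any 2 arrays correlated over all rows with r from 0.954 to 0.981. The fibre markers *Ckm*, *Acta1*, *Myh1*, *Mylpf*, *Tnnt3*, *Tnni2*, *Actn3*, *Pygm* and *Des* had a mean of 11.9 to 12.1 in every array, so the tissue read as fast skeletal muscle in every group.

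Across the 6 groups 8 of the 10 triad genes differed (moderated F test, adjusted p from 5.76e-07 for *Cacnb1* to 0.0232 for *Trdn*), whereas *Stim1* (adjusted p = 0.0753) and *Orai1* (adjusted p = 0.334) did not pass. Of all genes tested, 49.2% passed the same F test. The group means of *Cacng1* spanned 0.80 and those of *Cacnb1* 0.75, against 0.19 for *Stim1* and 0.24 for *Orai1*. In bulk tissue, fewer cells of a type and less RNA per cell cannot be told apart, and this holds for every gene here.

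**Figure D1:**
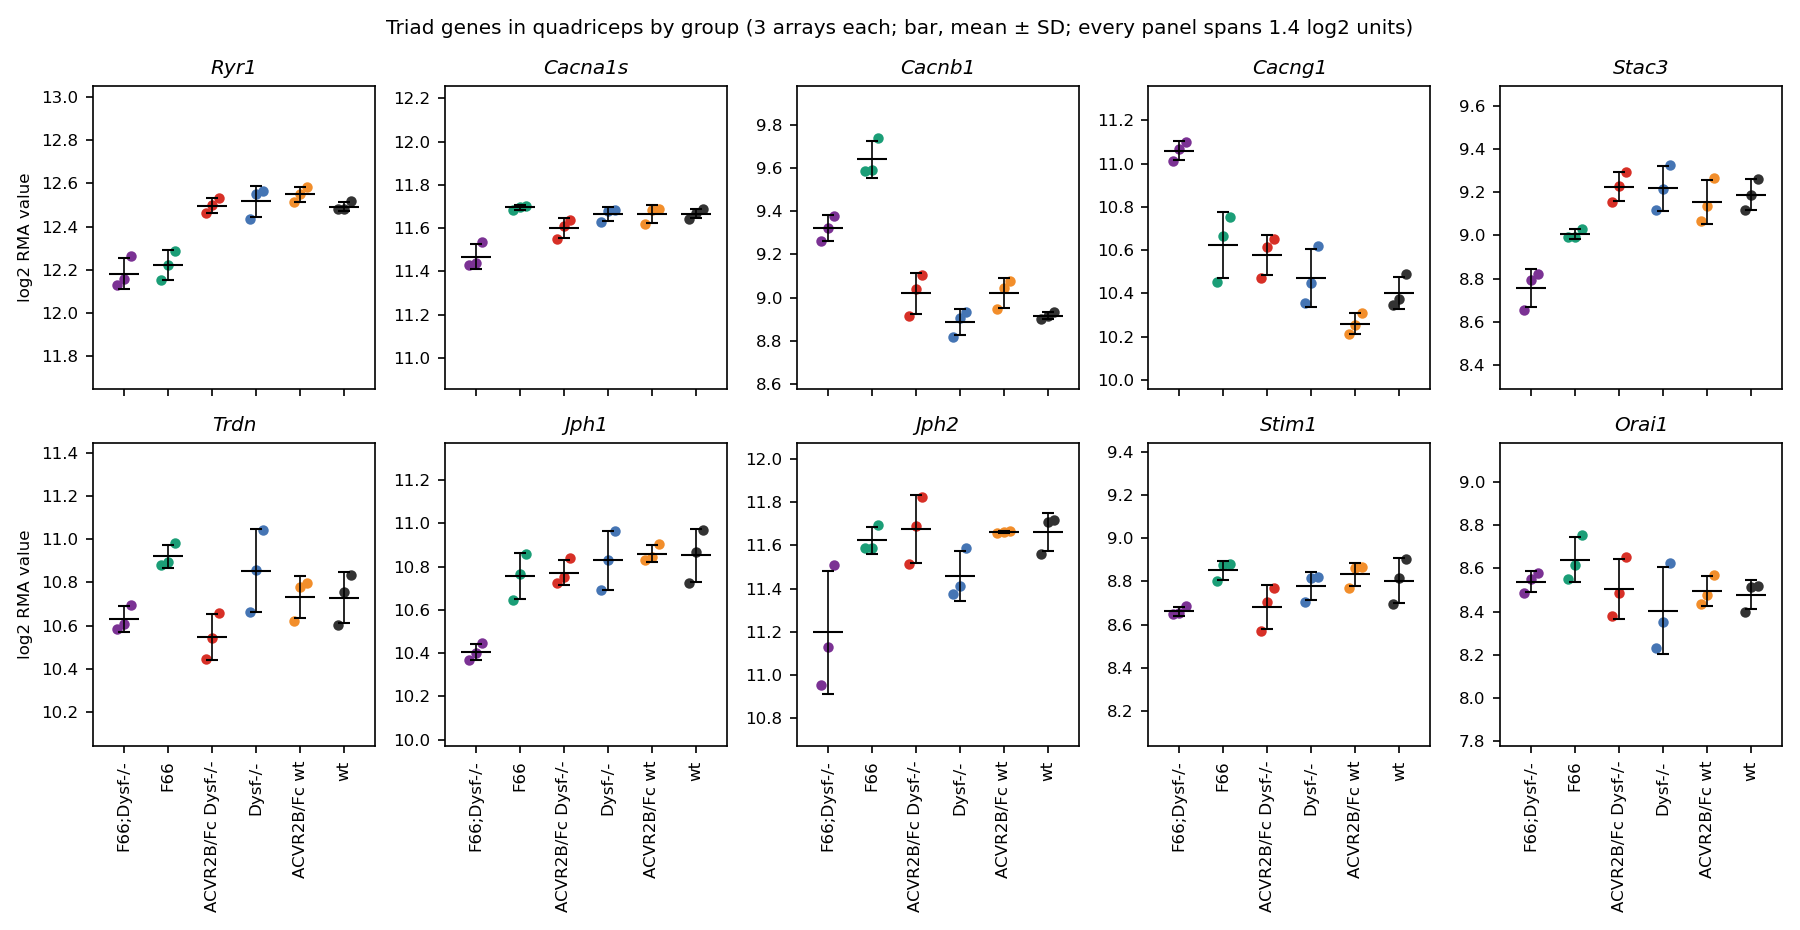
Log2 RMA value of each of the 10 triad genes (vertical axis) in each group (horizontal axis). Points are single arrays and bars the mean ± SD of 3 arrays. *Cacnb1* stood highest in *F66* (9.59 to 9.74), *Cacng1* in *F66;Dysf-/-* (11.01 to 11.10), and *Ryr1* lay at 12.29 or below in both groups with the transgene and at 12.44 or above in the other groups.

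The voltage sensor subunits went in opposite directions in *F66;Dysf-/-* muscle, where the β1 and γ1 subunit genes rose and the pore subunit gene fell. *Cacnb1* encodes the β1 subunit, the intracellular partner that brings the channel to the triad. It read 9.26, 9.32 and 9.38 in *F66;Dysf-/-* arrays and 8.82, 8.91 and 8.94 in *Dysf-/-* arrays. In *F66* arrays it read 9.59, 9.59 and 9.74, and in *wt* arrays 8.90, 8.91 and 8.93. No array with the transgene overlapped an array of its background, and *F66* lay above *F66;Dysf-/-* as well. The injected groups read 8.92, 9.04 and 9.10 (ACVR2B/Fc-injected *Dysf-/-*) and 8.95, 9.04 and 9.08 (ACVR2B/Fc-injected *wt*). *Cacnb1* was higher by 0.44 ± 0.06 (SE; 35.2%, adjusted p = 5.6e-05) in *F66;Dysf-/-* than in *Dysf-/-* and by 0.72 ± 0.06 (64.9%, adjusted p = 2.02e-06) in *F66* than in *wt*. From the highest mean to the lowest, the order was *F66*, *F66;Dysf-/-*, ACVR2B/Fc-injected *wt*, ACVR2B/Fc-injected *Dysf-/-*, *wt* and *Dysf-/-*, and only the top 2 groups were clear of the group next below them.

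*Cacng1* encodes the γ1 subunit, a membrane-spanning accessory that restrains the channel's calcium current. It read 11.01, 11.07 and 11.10 in *F66;Dysf-/-* arrays, against 10.35, 10.45 and 10.62 in *Dysf-/-* arrays. The rise in the transgenic null muscle was 0.59 ± 0.08 (50.2%, adjusted p = 4.34e-05), with no overlap. In *F66* arrays it read 10.45, 10.67 and 10.75, against 10.35, 10.38 and 10.49 in *wt* arrays. These groups overlapped through the lowest *F66* array, and the difference of 0.22 ± 0.08 did not pass (adjusted p = 0.0918). Without that array, *F66* replicate 1, the difference was 0.31 and passed (adjusted p = 0.0243). The injected groups read 10.47 to 10.65 in *Dysf-/-* and 10.21 to 10.31 in *wt*. *F66;Dysf-/-* was clear of *F66*, the group next below it, the 4 groups from *F66* down to *wt* each overlapped their neighbour, and ACVR2B/Fc-injected *wt* lay below them all.

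*Cacna1s* encodes the α1S subunit, the pore and voltage sensor itself. It read 11.43, 11.44 and 11.54 in *F66;Dysf-/-* arrays, against 11.63, 11.68 and 11.68 in *Dysf-/-* arrays, and was lower by 0.20 ± 0.05 on the log2 scale (a log2 difference of -0.20, adjusted p = 0.00425). With each array centred on its own median over all rows, the *Cacna1s* difference was -0.11 and no longer passed (adjusted p = 0.185), nor did it with all rows of the table tested (adjusted p = 0.143). The *F66* arrays read 11.68 to 11.70 and the *wt* arrays 11.64 to 11.69, a difference of 0.03 ± 0.05 (95% interval -0.07 to 0.13). *F66;Dysf-/-* was the lowest of the 6 groups and clear of all others, which overlapped their neighbours.

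*Stac3* encodes an adaptor that binds the channel and is required for coupling. It read 8.66, 8.79 and 8.82 in *F66;Dysf-/-* arrays, against 9.12, 9.21 and 9.32 in *Dysf-/-* arrays, a difference of -0.46 ± 0.07 (adjusted p = 9.38e-05). In *F66* arrays it read 8.99, 8.99 and 9.03, below every *wt* array (9.12, 9.19 and 9.26), but the difference of -0.18 ± 0.07 did not pass (adjusted p = 0.0992). The 4 groups without the transgene overlapped one another, and the injected groups read 9.07 to 9.29.

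Of the release channel proteins, *Ryr1*, which encodes the ryanodine receptor of skeletal muscle, was lower in both groups with the transgene. It read 12.13, 12.16 and 12.26 in *F66;Dysf-/-* arrays, against 12.44, 12.55 and 12.56 in *Dysf-/-* arrays (-0.33 ± 0.05, adjusted p = 0.000186). In *F66* arrays it read 12.15, 12.22 and 12.29, against 12.48, 12.48 and 12.52 in *wt* arrays (-0.27 ± 0.05, adjusted p = 0.00331). Neither pair overlapped, *F66;Dysf-/-* and *F66* overlapped each other, and so did the 4 groups without the transgene, with the injected groups at 12.46 to 12.58. The *Ryr1* call in *F66* was lost with the Student's t-test that the study's statistics name (adjusted p = 0.0597) and with all rows tested (adjusted p = 0.103).

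*Trdn* encodes triadin. It read 10.58, 10.61 and 10.70 in *F66;Dysf-/-* arrays, 10.88, 10.90 and 10.98 in *F66* arrays, 10.66, 10.86 and 11.04 in *Dysf-/-* arrays and 10.60, 10.75 and 10.83 in *wt* arrays. The *Dysf-/-* arrays spread over a range that met the other groups. *Trdn* differed by -0.23 ± 0.09 between *F66;Dysf-/-* and *Dysf-/-* (adjusted p = 0.0671) and by 0.19 ± 0.09 between *F66* and *wt* (adjusted p = 0.185), and neither passed. The lower difference passed without *Dysf-/-* replicate 3, whose omission gave -0.32 (adjusted p = 0.0131), and both passed once the arrays had been quantile normalized again (-0.27, adjusted p = 0.00894, and 0.25, adjusted p = 0.0318).

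The junctophilins, which span the gap between the facing membranes, were both lowest in *F66;Dysf-/-*. *Jph1* read 10.37, 10.40 and 10.45 in *F66;Dysf-/-* arrays, against 10.69, 10.83 and 10.96 in *Dysf-/-* arrays (-0.42 ± 0.08, adjusted p = 0.000505), and was clear of every other group. *F66* arrays read 10.65 to 10.86 and *wt* arrays 10.72 to 10.97, which overlapped. *Jph2* was less even within a group. It read 10.95, 11.13 and 11.51 in *F66;Dysf-/-* arrays, against 11.38, 11.41 and 11.59 in *Dysf-/-* arrays, so that 1 transgenic array lay among the others, and the difference of -0.26 ± 0.11 did not pass (adjusted p = 0.0876). Without that array, *F66;Dysf-/-* replicate 3, it was -0.42 and passed (adjusted p = 0.00365), as it did after quantile normalizing again (-0.34, adjusted p = 0.0498) and with the mean of both *Jph2* rows (-0.28, adjusted p = 0.0189). The second *Jph2* row read 9.33 to 9.54 in *F66;Dysf-/-* arrays and 9.74 to 9.78 in *Dysf-/-* arrays, with no overlap (-0.31 ± 0.09, adjusted p = 0.0492 over all rows). In *F66* against *wt*, *Jph2* differed by -0.04 ± 0.11.

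Of the store-operated entry genes, *Stim1*, the calcium sensor in the store membrane, read 8.65, 8.65 and 8.69 in *F66;Dysf-/-* arrays and 8.70, 8.81 and 8.82 in *Dysf-/-* arrays. These did not overlap, but the difference of -0.12 ± 0.06 did not pass (adjusted p = 0.174). In *F66* arrays it read 8.80 to 8.88 and in *wt* arrays 8.69 to 8.90. *Orai1*, the channel in the outer membrane that STIM1 opens, read 8.48 to 8.58 in *F66;Dysf-/-* arrays, 8.55 to 8.76 in *F66* arrays, 8.23 to 8.62 in *Dysf-/-* arrays and 8.40 to 8.52 in *wt* arrays. All neighbouring groups of *Orai1* overlapped, and its difference of 0.13 ± 0.09 between *F66;Dysf-/-* and *Dysf-/-* passed only without *Dysf-/-* replicate 2 (0.24, adjusted p = 0.0449).

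The promoters of the pore subunit, the release channel and the β1 subunit are shown because the last of these rose with the transgene while the other 2 fell or stayed level. RefSeq windows on GRCm38.p6, from 250 bases before a start site to 50 bases after it, were given for 6 of the 10 genes (*Cacna1s*, *Cacnb1*, *Jph2*, *Orai1*, *Ryr1* and *Stim1*). Capitals mark CANNTG, the E-box that MyoD-family and many other factors can bind, where N is any base. The motif reads the same on both strands, and CAGCTG is 1 form of it.
*Cacna1s* (chr1:136052561-136052860, + strand): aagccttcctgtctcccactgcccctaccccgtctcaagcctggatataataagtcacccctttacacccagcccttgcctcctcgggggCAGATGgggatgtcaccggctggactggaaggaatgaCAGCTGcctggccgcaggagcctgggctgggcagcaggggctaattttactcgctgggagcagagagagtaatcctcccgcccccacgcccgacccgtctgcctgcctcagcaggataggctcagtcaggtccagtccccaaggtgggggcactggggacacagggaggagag
*Ryr1* (chr7:29125102-29125401, - strand): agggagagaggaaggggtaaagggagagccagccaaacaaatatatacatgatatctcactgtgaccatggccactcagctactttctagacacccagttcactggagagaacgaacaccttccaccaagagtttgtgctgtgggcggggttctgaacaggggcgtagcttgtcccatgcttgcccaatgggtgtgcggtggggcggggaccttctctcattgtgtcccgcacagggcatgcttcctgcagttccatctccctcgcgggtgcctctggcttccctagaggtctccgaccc
*Cacnb1*, start site 1 (chr11:98022578-98022877, - strand): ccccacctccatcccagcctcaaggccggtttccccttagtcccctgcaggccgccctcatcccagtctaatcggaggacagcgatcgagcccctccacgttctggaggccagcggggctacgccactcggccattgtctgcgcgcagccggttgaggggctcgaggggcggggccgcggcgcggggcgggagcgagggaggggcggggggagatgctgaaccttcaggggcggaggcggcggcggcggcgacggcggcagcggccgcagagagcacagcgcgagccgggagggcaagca
*Cacnb1*, start site 2 (chr11:98018323-98018622, - strand): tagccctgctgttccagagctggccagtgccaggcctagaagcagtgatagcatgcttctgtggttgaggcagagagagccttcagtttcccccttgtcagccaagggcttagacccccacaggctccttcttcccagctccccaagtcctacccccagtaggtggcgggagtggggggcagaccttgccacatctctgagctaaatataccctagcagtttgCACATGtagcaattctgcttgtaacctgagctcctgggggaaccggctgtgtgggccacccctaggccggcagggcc
*Cacna1s* held 2 E-boxes, of which 1 was CAGCTG, *Ryr1* held none, and *Cacnb1* held 0 at the first start site and 1 at the second. Of all 32851 windows, 72.3% held CANNTG and 16.3% held CAGCTG. This form was also in the windows of *Jph2* and *Orai1*, and not in that of *Stim1*, whose E-box was of another form. A match is a description of these letters only.

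In the comparison of *F66;Dysf-/-* with *Dysf-/-*, which asks what the transgene does in muscle without dysferlin, 2 of the 10 triad genes rose (*Cacnb1* and *Cacng1*) and 4 fell (*Ryr1*, *Cacna1s*, *Stac3* and *Jph1*). Of all genes tested, 15.2% rose and 18.4% fell. The median log2 difference of the 10 was -0.21, against -0.09 over all genes. The arrays of the groups did not overlap for 7 of the 10 genes, against 50.9% of all genes. With each array centred on its median, the calls over all genes turned from 3078 higher and 3730 lower to 3957 higher and 1669 lower, and 5 triad genes kept their call (all but *Cacna1s*).

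**Figure D2:**
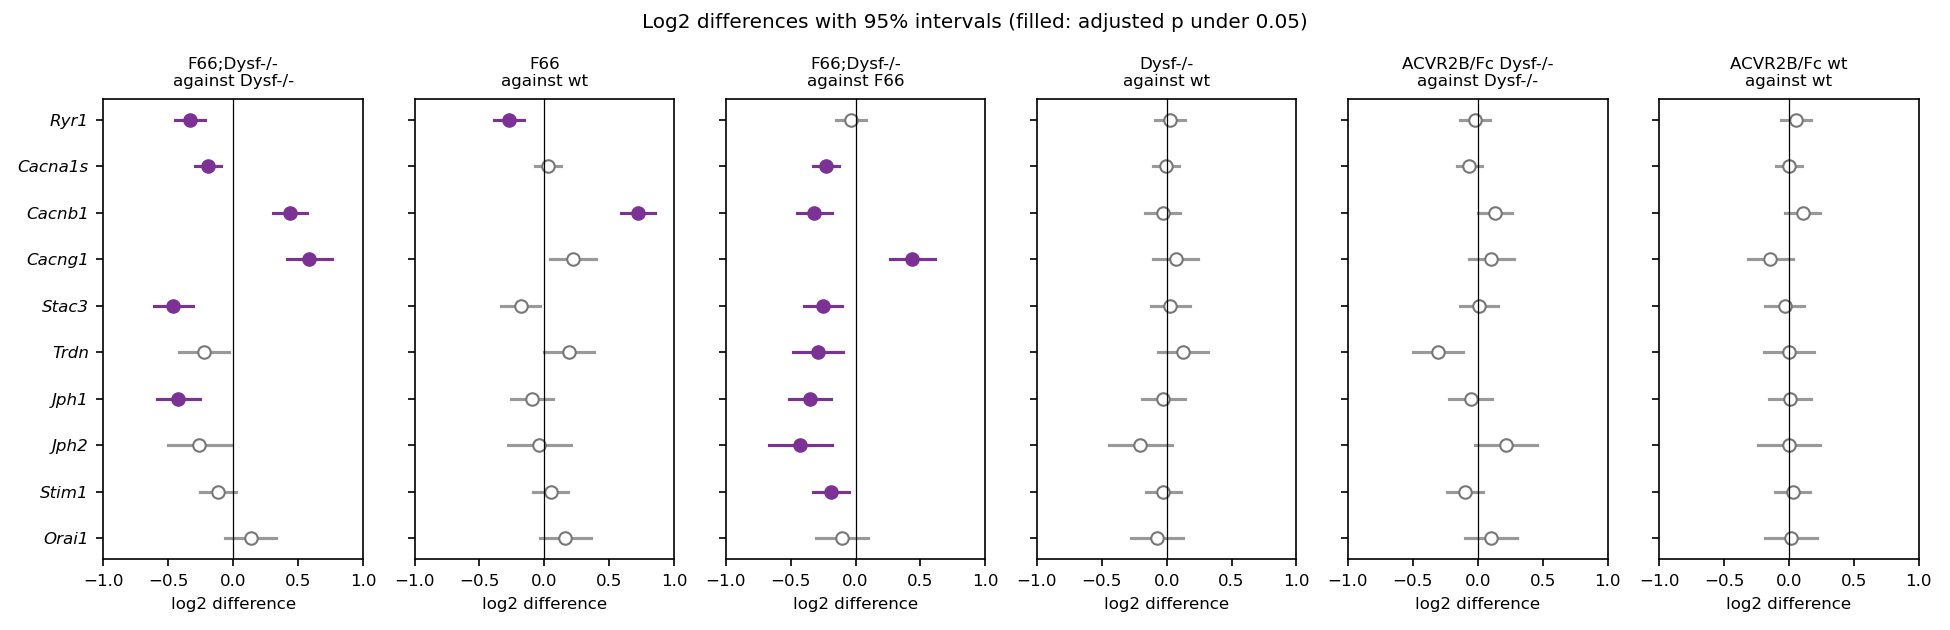
Log2 difference (horizontal axis, with its 95% interval) of each triad gene in each comparison (1 panel each), with the group named first minus the group named after it. Filled points passed the adjusted threshold, as 6 genes did in *F66;Dysf-/-* against *Dysf-/-*, 2 in *F66* against *wt*, 8 in *F66;Dysf-/-* against *F66*, and none in the other panels. Over all genes, the shares higher and lower were 15.2% and 18.4%, 8.11% and 5.5%, and 14.5% and 20.3% in these. In the other panels at most 0.489% of all genes passed.

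Markers of other cells moved in the same comparison. All 9 macrophage and monocyte markers rose (median 2.02, with *Cd68* at 3.12), and their summed signal was 5230 to 6030 in *F66;Dysf-/-* arrays and 994 to 1270 in *Dysf-/-* arrays. All 8 fibroblast and matrix markers rose (median 1.49, with *Postn* at 2.71), to sums of 8250 to 8960 and 2670 to 2860 in those groups. Of 6 markers of regenerating fibres and myoblasts, 4 rose (*Myog*, *Tnnt2*, *Ncam1* and *Myod1*, from 1.03 to 1.72), with sums of 5650 to 6040 in *F66;Dysf-/-* and 3510 to 4300 in *Dysf-/-*. Of 9 fibre markers, 6 fell and 1 rose (*Des*), with a median of -0.18, and their summed signal was 40900 to 43200 in *F66;Dysf-/-* and 46400 to 46900 in *Dysf-/-*. The fall of *Ryr1* (-0.33), *Stac3* (-0.46) and *Jph1* (-0.42) was below the lowest fibre marker, *Tnni2*, at -0.26, while that of *Cacna1s* (-0.20) lay among them. The part of these cells in the result was not tested. Of 5 endothelial markers 3 fell, of 4 adipocyte markers 3 fell, of 4 T cell markers 1 rose and 1 fell, and both Schwann cell markers fell.

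Of the other genes of calcium handling, 50 of 59 listed had a row of their own, and 13 rose and 10 fell between *F66;Dysf-/-* and *Dysf-/-* (46% passed, with a median of -0.00). Over all genes tested, 15.2% rose and 18.4% fell. Among other channel subunits, *Cacna1d*, the pore of a channel best known from heart and endocrine cells, rose by 1.15 (6.48 to 6.71 in *F66;Dysf-/-* and 5.38 to 5.47 in *Dysf-/-*). *Cacnb2* fell by 0.34 (5.12 to 5.21 in *F66;Dysf-/-* and 5.46 to 5.55 in *Dysf-/-*). These *Cacnb2* values lay near the median signal of an array (5.27 to 5.45), as did *Cacna1d* in *Dysf-/-*. Among 14 other release channel and junction proteins 4 rose and 5 fell. *Stac2*, a relative of *Stac3*, rose by 1.14 (6.78 to 7.06 in *F66;Dysf-/-*, against 5.74 to 5.90 in *Dysf-/-*), *Selenon*, a reticulum selenoprotein whose loss causes a myopathy in humans, rose by 0.90, and *Homer1*, a scaffold, fell by 0.87 (7.85 to 7.94 in *F66;Dysf-/-*, against 8.57 to 8.94 in *Dysf-/-*). *Stac3* and *Stac2* thus went opposite ways in the same arrays.

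Of 11 store, pump and luminal proteins 4 rose and 1 fell. *Sln*, sarcolipin, an inhibitor of the reticulum calcium pump, rose by 2.37 (9.32 to 9.38 in *F66;Dysf-/-*, against 6.91 to 7.02 in *Dysf-/-*). *Casq2*, the calsequestrin of heart and slow fibres, rose by 0.91, and *Pln*, phospholamban, another inhibitor of the pump, fell by 0.65. Of 9 genes of tubule and triad structure 2 rose and 3 fell, among them *Tcap* (-0.51), *Ank1* (-0.50) and *Bin1* (0.47), the last an amphiphysin that shapes the tubules. The *Bin1* call was lost with the t-test (adjusted p = 0.0695). Of 5 other store-operated entry genes *Orai2* rose by 0.58 (by 1.01 with the mean of its rows), and of 5 buffer and extrusion genes *Atp2b1*, a plasma membrane calcium pump, rose by 0.49.

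**Figure D3:**
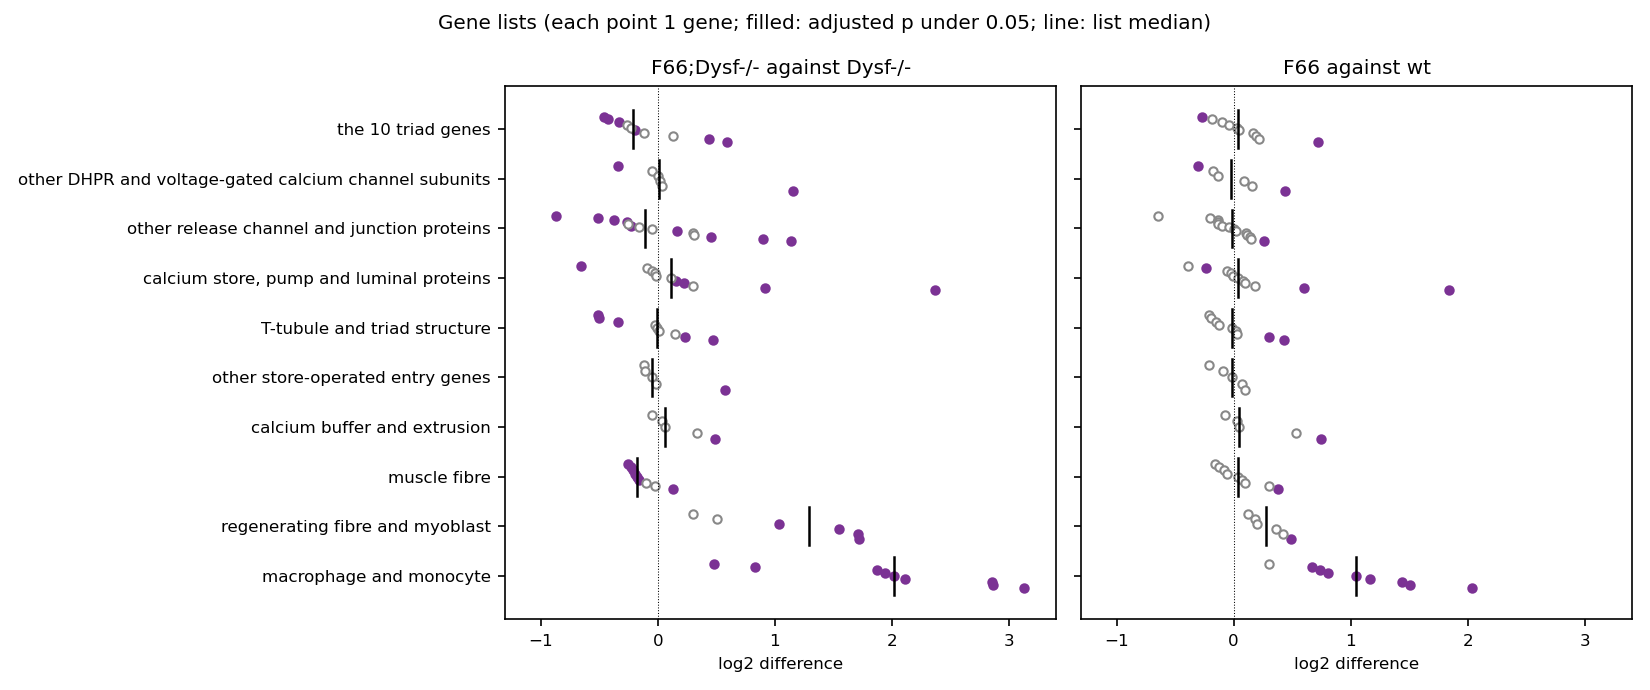
Log2 differences (horizontal axis) of the genes of each list (rows) in *F66;Dysf-/-* against *Dysf-/-* (left) and *F66* against *wt* (right). Each point is 1 gene, filled where it passed, and the vertical line is the list median: -0.21 and 0.04 for the 10 triad genes, -0.18 and 0.04 for fibre markers, 2.02 and 1.04 for macrophage markers.

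In *F66* against *wt*, the same transgene with dysferlin intact, *Cacnb1* rose and *Ryr1* fell, and the other 8 triad genes did not pass, among them *Orai1* (0.16), *Stim1* (0.05) and *Jph1* (-0.10). Of all genes tested, 8.11% rose and 5.5% fell. The median of the 10 genes was 0.04, against -0.03 over all genes, and the arrays did not overlap for 5 of the 10 (*Cacnb1*, *Orai1* and *Trdn* higher, *Ryr1* and *Stac3* lower), against 30.5% of all genes. With the arrays centred, the calls over all genes turned from 1644 higher and 1115 lower to 2258 higher and 589 lower, and both triad calls stayed. Macrophage markers rose here too (8 of 9, median 1.04, sums of 1460 to 1740 in *F66* and 673 to 700 in *wt*), as did 7 of 8 matrix markers, whereas of the 9 fibre markers *Des* alone rose and none fell (sums of 44800 to 47200 in *F66* and 45700 to 46300 in *wt*). Of 6 regeneration markers 1 rose (*Myog*, 0.49). Lower were 4 of 5 endothelial markers (with *Kdr* at -1.01), 3 of 4 adipocyte markers and 1 of 2 Schwann cell markers, and no T cell marker passed. Their part in the *Cacnb1* and *Ryr1* differences was not tested.

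Of the 50 other calcium handling genes, 7 rose and 2 fell in *F66* against *wt* (18%), against 8.11% risen and 5.5% fallen of all genes. *Sln* rose by 1.84 (8.58 to 8.76 in *F66*, against 6.47 to 7.55 in *wt*), *Slc8a3*, a sodium-calcium exchanger of skeletal muscle, by 0.75, *Srl*, sarcalumenin, a calcium-binding protein of the store, by 0.60, *Cacnb4*, another β subunit, by 0.44, *Bin1* by 0.43, *Dysf* by 0.30 and *Selenon* by 0.26. *Cacnb2*, a further β subunit, fell by 0.30 and *Itpr3* fell by 0.24. *Cacnb2* lay at 5.09 to 5.17 in *F66* arrays and 5.37 to 5.45 in *wt* arrays, near the median signal of an array (5.27 to 5.45), and did not pass with all rows tested (adjusted p = 0.0646). Nor did *Bin1*, *Dysf*, *Itpr3* and *Selenon* pass with all rows tested (adjusted p from 0.0741 to 0.157). With the t-test none of *Sln*, *Slc8a3*, *Srl*, *Cacnb4*, *Bin1*, *Dysf*, *Selenon* and *Itpr3* passed (adjusted p from 0.0502 to 0.118). Without *F66* replicate 2 *Selenon* was at 0.21 and did not pass (adjusted p = 0.0724).

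The effect of the transgene was then compared between the backgrounds, as the *F66;Dysf-/-* minus *Dysf-/-* difference less the *F66* minus *wt* difference; these effects share no array. It differed for 4 of the 10 triad genes, higher for *Cacng1* and lower for *Cacna1s*, *Cacnb1* and *Trdn*. Of all genes tested, 8.54% were higher and 7.93% lower. *Cacng1* rose more without dysferlin (0.59 and 0.22, difference 0.37 ± 0.12, adjusted p = 0.0408), and *Cacnb1* rose less (0.44 and 0.72, difference -0.29 ± 0.09, adjusted p = 0.0363). *Cacna1s* fell without dysferlin and was level with it intact (-0.20 and 0.03, difference -0.22 ± 0.07, adjusted p = 0.0287). *Trdn* had opposite signs (-0.23 and 0.19, difference -0.42 ± 0.13, adjusted p = 0.0359). *Jph1* (-0.33 ± 0.11, adjusted p = 0.0516) and *Stac3* (-0.28 ± 0.10, adjusted p = 0.0676) did not pass, and for *Ryr1* the effects of -0.33 and -0.27 differed by -0.06, with an interval of -0.23 to 0.10. *Jph2* (-0.22), *Stim1* (-0.17) and *Orai1* (-0.03) did not pass either.

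**Figure D4:**
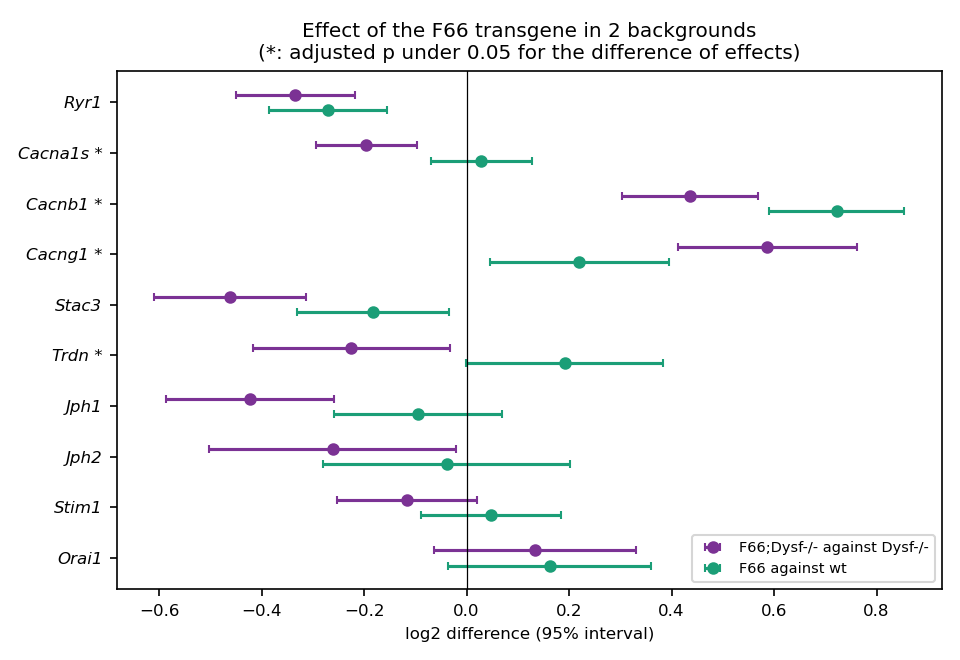
Log2 difference with its 95% interval (horizontal axis) for each triad gene (rows), *F66;Dysf-/-* against *Dysf-/-* in purple and *F66* against *wt* in green. A star marks the 4 genes whose effects differed between backgrounds (*Cacna1s*, *Cacnb1*, *Cacng1* and *Trdn*), and *Ryr1* lay at -0.33 and -0.27. Over all genes, the effect was higher without dysferlin for 8.54% and lower for 7.93%.

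These 4 calls were close to the threshold. With the arrays centred none passed, at -0.20 (*Cacna1s*), -0.26 (*Cacnb1*), 0.39 (*Cacng1*) and -0.39 (*Trdn*), and none passed with all rows tested. There the differences are the same, but both the spread that limma shares between rows and the adjustment are taken over all rows. Each was also lost on leaving out single arrays. For *Cacna1s* these were *Dysf-/-* replicates 2 and 3, *F66* replicates 1 and 3, *F66;Dysf-/-* replicates 1 and 2, and *wt* replicate 1 (-0.22 to -0.21). For *Cacnb1* they were *Dysf-/-* replicates 2 and 3, *F66* replicate 2, *F66;Dysf-/-* replicates 1 and 2, and all 3 of *wt* (-0.30 to -0.24). For *Cacng1* they were replicates 1 and 3 of *Dysf-/-*, *F66* and *wt*, and all 3 of *F66;Dysf-/-* (0.28 to 0.39). For *Trdn* they were *Dysf-/-* replicates 1 and 2, all 3 of *F66*, *F66;Dysf-/-* replicates 1 and 3, and *wt* replicates 2 and 3 (-0.44 to -0.32). After quantile normalizing again the *Cacna1s* difference was -0.39 and passed, and that of *Cacng1* was 0.22 and did not (adjusted p = 0.345). On the compared groups alone and with the t-test, *Cacng1* (adjusted p = 0.07 and 0.0993) and *Trdn* (adjusted p = 0.053 and 0.0844) did not pass. *Jph1* passed without *Dysf-/-*, *F66* or *wt* replicate 1 (-0.40, -0.38 and -0.38), and *Stac3* without *Dysf-/-* replicate 1 (-0.33). *Jph1* also passed by limma with trend and robust eBayes (adjusted p = 0.0408) and without dim genes (adjusted p = 0.0386).

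Set against *F66* in place of *Dysf-/-*, a comparison that shares its *F66;Dysf-/-* arrays with the first, *F66;Dysf-/-* differed for 8 triad genes: *Cacng1* rose, and *Cacna1s*, *Cacnb1*, *Stac3*, *Trdn*, *Jph1*, *Jph2* and *Stim1* fell. Of all genes tested, 14.5% rose and 20.3% fell. The median of the 10 was -0.24, against -0.08 over all genes, and the arrays of the same 8 genes did not overlap, against 51% of all genes. *Cacng1* was higher by 0.44 ± 0.08 (adjusted p = 0.000642). Lower were *Jph2* (-0.43 ± 0.11), *Jph1* (-0.35 ± 0.08), *Cacnb1* (-0.32 ± 0.06), *Trdn* (-0.29 ± 0.09), *Stac3* (-0.25 ± 0.07), *Cacna1s* (-0.23 ± 0.05) and *Stim1* (-0.19 ± 0.06), with adjusted p from 0.000955 for *Cacnb1* to 0.0318 for *Stim1*. *Ryr1* (-0.04, interval -0.15 to 0.08) and *Orai1* (-0.10, interval -0.30 to 0.09) did not pass.

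Some of these calls rested on single arrays or on the scaling. Without *F66;Dysf-/-* replicate 1, *Jph2* (-0.30, adjusted p = 0.0539), *Stac3* (-0.20), *Stim1* (-0.19) and *Trdn* (-0.27) did not pass. *Stim1* was also lost without *F66;Dysf-/-* replicate 2 or 3 or *F66* replicate 2 or 3 (-0.20 to -0.18), and *Trdn* without *F66;Dysf-/-* replicate 3 (-0.28) or *F66* replicate 3 (-0.26). With the arrays centred, *Stac3*, *Stim1* and *Trdn* did not pass, and the calls over all genes turned from 2930 higher and 4104 lower to 3320 higher and 2726 lower. With the t-test *Jph2* did not pass (adjusted p = 0.142), and with all rows tested *Jph2* (adjusted p = 0.0536), *Cacna1s*, *Stac3*, *Trdn* and *Stim1* (adjusted p = 0.203) did not. After quantile normalizing again the differences were -0.71 for *Jph2*, -0.57 for *Jph1*, -0.51 for *Trdn* and -0.49 for *Cacna1s*, *Cacng1* was at 0.17 and did not pass (adjusted p = 0.198), and *Ryr1* was at -0.28 and passed (adjusted p = 0.00343). All 6 regeneration markers were higher in *F66;Dysf-/-* than in *F66*, as were 8 of 9 macrophage markers (*Cd163* was lower), 6 of 8 fibroblast and matrix markers (median 0.95, with *Postn* at 3.49), 2 of 5 endothelial markers (with *Kdr* at 0.75) and 1 of 4 T cell markers. Lower were 3 of 9 fibre markers (*Ckm*, *Tnni2* and *Actn3*) and 1 of 2 Schwann cell markers, and no adipocyte marker passed. Their part in the result was not tested.

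Of the 50 other calcium handling genes, 14 were higher and 12 lower in *F66;Dysf-/-* than in *F66* (52%). Over all genes, 14.5% were higher and 20.3% lower. Those furthest apart, *Dysf* itself (-2.03) aside, were *Cacna1d* (1.14), *Stac2* (1.08), *Casq2* (0.89), *Homer1* (-0.87), *Atp2a2* (0.78), the calcium pump of heart and slow fibres, *Pln* (-0.74) and *Mtm1* (0.71), a phosphatase of tubule lipids. With the mean of a gene's rows, *Atp2a2* was at 0.36 and *Mtm1* at 0.32. *Cacna1d* lay at 6.48 to 6.71 in *F66;Dysf-/-* and at 5.37 to 5.60 in *F66*, and *Casq2* at 8.09 to 8.20 in *F66;Dysf-/-* and at 7.15 to 7.33 in *F66*.

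Loss of dysferlin without the transgene gave no triad gene past the threshold at 10 weeks of age, and few genes of any kind. In *Dysf-/-* against *wt* none of the 10 passed by limma or the t-test, against 0.489% of all genes. None reached an unadjusted p under 0.05, against 9.84% of all genes, and the arrays overlapped for all 10, against 13.5% of all genes without overlap. The differences ran from -0.20 (*Jph2*, interval -0.44 to 0.04) to 0.13 (*Trdn*, interval -0.07 to 0.32), with a median of -0.01 against -0.02 over all genes. For *Ryr1* the interval was -0.09 to 0.14 and for *Cacna1s* -0.10 to 0.10. The other 6 lay between these extremes, at 0.07 (*Cacng1*), 0.03 (*Stac3*), -0.02 (*Jph1*), -0.02 (*Stim1*), -0.03 (*Cacnb1*) and -0.08 (*Orai1*). Of the other calcium handling genes *Mtm1* (0.73, adjusted p = 0.0231) and *Slc8a3* (0.59, adjusted p = 0.0363) were higher and *Dysf* lower (-1.71). The *Mtm1* call was lost without *Dysf-/-* replicate 1 or 2 (0.69 each) or any 1 *wt* array (0.71 to 0.75), and that of *Slc8a3* without any 1 of the 6 arrays (0.53 to 0.67). Macrophage markers were higher by a median of 0.44 (4 of 9 passed), and no fibre marker passed.

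The injected receptor gave no triad gene past the threshold. In ACVR2B/Fc-injected *Dysf-/-* against *Dysf-/-*, 0 of 10 passed by limma or by the t-test, against 0.0247% of all genes. An unadjusted p under 0.05 was reached by 2 of the 10 and by 18.8% of all genes. One was *Trdn*, at 10.45, 10.54 and 10.66 in injected arrays and 10.66, 10.86 and 11.04 in *Dysf-/-* arrays (-0.31 ± 0.09, unadjusted p = 0.00401, adjusted p = 0.128). These just failed to overlap, against 22.5% of all genes without overlap. The other was *Cacnb1* (0.13 ± 0.06, unadjusted p = 0.0494, adjusted p = 0.265). The remaining differences were 0.22 (*Jph2*), 0.10 (*Cacng1*), 0.10 (*Orai1*), 0.01 (*Stac3*), -0.02 (*Ryr1*), -0.06 (*Jph1*), -0.06 (*Cacna1s*) and -0.10 (*Stim1*). In ACVR2B/Fc-injected *wt* against *wt*, 0 of 10 passed by either tool, against 0.0296% of all genes, and none had an unadjusted p under 0.05, against 7.61% of all genes. *Cacnb1* (0.11) and *Cacng1* (-0.14) did not overlap between those groups, against 11.8% of all genes without overlap, and *Ryr1*, *Cacna1s*, *Stac3*, *Trdn*, *Jph1*, *Jph2*, *Stim1* and *Orai1* lay between -0.03 and 0.06. The median of the 10 was -0.01 in *Dysf-/-* (0.04 over all genes) and 0.00 in *wt* (0.00 over all genes), and no other calcium handling gene passed in either. The effect of the injection differed between backgrounds for none of the 10 and for 0.00494% of all genes. An unadjusted p under 0.05 was reached by 2 of the 10 (*Cacng1* at 0.25 and *Trdn* at -0.31) and by 7.75% of all genes, and the other 8 lay between -0.13 (*Stim1*) and 0.21 (*Jph2*).

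Within an array, genes can be set against each other as a change relative to *wt*, which takes out what the genes of that array share. The log2 value of *Cacnb1* less that of *Cacna1s*, with the *wt* mean taken as 0, was 0.582 to 0.636 in *F66;Dysf-/-* arrays and 0.637 to 0.804 in *F66* arrays, 0.03 to 0.24 in ACVR2B/Fc-injected *Dysf-/-* and 0.08 to 0.14 in ACVR2B/Fc-injected *wt* arrays, -0.06 to 0.00 in *Dysf-/-* and -0.02 to 0.01 in *wt* arrays. The groups with the transgene lay next to each other here without overlap. *Cacng1* less *Cacna1s* was 0.79 to 0.93 in *F66;Dysf-/-* and 0.01 to 0.33 in *F66*. *Ryr1* less *Cacna1s* was -0.13 to -0.10 in *F66;Dysf-/-*, -0.36 to -0.24 in *F66*, and -0.02 to 0.09 in the other 12 arrays. These differences show unequal change of the genes and not which of them changed.

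**Figure D5:**
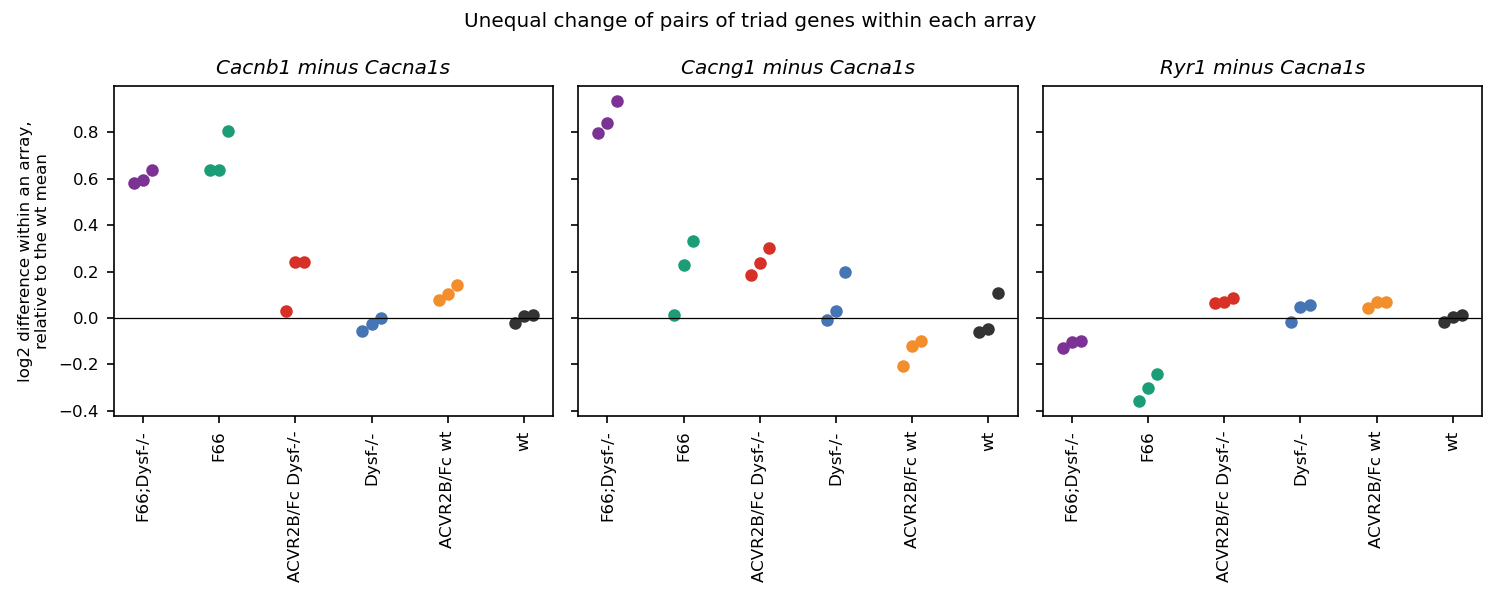
Log2 value of *Cacnb1*, *Cacng1* or *Ryr1* less that of *Cacna1s* in the same array, relative to the *wt* mean (vertical axis), by group (horizontal axis), each point 1 array. *Cacnb1* less *Cacna1s* lay at 0.58 or above in both groups with the transgene, *Cacng1* less *Cacna1s* at 0.79 or above in *F66;Dysf-/-* alone, and *Ryr1* less *Cacna1s* at -0.10 or below in both.

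For the 3 triad genes with the largest F, the genes of most like pattern were found by the root mean squared difference of centred values over the 18 arrays. For *Cacnb1*, whose own root mean square about its mean was 0.27, they were *Hfe* (0.07), *Plekha2* (0.09) and *Mlec* (0.10). *Hfe* rose by 0.51 in *F66;Dysf-/-* over *Dysf-/-* and by 0.85 in *F66* over *wt*. For *Cacng1* (0.26) they were *Prelid1* (0.09), *Eif4a1* (0.09) and *Arf3* (0.09), and for *Ryr1* (0.15) *Map3k4* (0.05), *2610507B11Rik* (0.06) and *Apba2* (0.06). None of the 9 was a triad gene.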

How the data were processed

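The authors hybridized quadriceps RNA to 18 exon arrays, 3 for each of 6 groups. The deposited values are log2 signals of 115830 transcript clusters per array, made by the authors with RMA in Partek against mm9 per the submitters' processing notes, with versions not given in the sources used here. RMA corrects background, quantile normalizes across arrays and summarizes probes, which removes part of any change shared by most genes and compresses differences of dim genes. No detection calls were used, and arrays have no read depth, so that 3 arrays per group limit the precision. Symbols came from the platform annotation (25539 rows with 1 symbol, 2300 with several, which were not named). Of 112 listed genes 15 had no row of their own and were not analysed.

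Each array took its group from the labels. Tests used R 4.3.3 and limma 3.58.1 (lmFit, contrasts.fit, eBayes) with 6 group means, 12 residual and 3.2 prior degrees of freedom, two-sided, with Benjamini-Hochberg adjustment over 20259 genes per comparison at 0.05. The array methods give p under 0.01 and over 2-fold and name no test, and the general statistics name Student's t-test, which was run as an alternative. Also tried were a limma model of the compared groups alone, a block for the replicate number, a test of every row of the table, each gene as the average of its rows, a filter on dim genes, renewed quantile normalization, array centring, eBayes with trend and robust, and leaving out each array. Comparisons share arrays where they share a group. Marker sums are linear signals. Figures were drawn with matplotlib 3.10.9.

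The triad genes and all lists were chosen with earlier results of these data known. The text names all 10 triad genes in each comparison, save the difference of injection effects, where some are given only within a range. It also names up to 3 passing genes with the largest difference from each list, and for the 3 triad genes of largest F the 3 genes of most like pattern. Promoter windows came from RefSeq (GRCm38.p6), and coordinates of array rows are not given because the builds differ.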

Additional observations from a re-analysis of the deposited data

Results flagged for a closer look

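The effect of the *F66* transgene differed between the *Dysf-/-* and *wt* backgrounds, by a test of the difference itself, for 4 triad genes: *Cacna1s* (-0.22), *Cacnb1* (-0.29), *Cacng1* (0.37) and *Trdn* (-0.42), as log2 differences with adjusted p from 0.0287 to 0.0408 (limma). Of all genes tested, 8.54% were higher and 7.93% lower. None of the 4 calls held with the arrays centred or with all rows tested, and each was lost on leaving out some single arrays. Of the 50 other calcium handling genes, 9 were higher and 8 lower. Among the other calcium handling genes named, it was higher in *Dysf-/-* muscle for *Cacna1d* (1.07, adjusted p = 7.64e-06), *Stac2* (1.00), *Casq2* (0.87), *Atp2a2* (0.69), *Selenon* (0.63), *Orai2* (0.48), *Atp2b1* (0.44) and *Dnm2* (0.35). It was lower there for *Homer1* (-0.98), *Slc8a3* (-0.71), *Pln* (-0.60), *Cacnb4* (-0.40), *Ank1* (-0.31) and *Dysf* (-0.32). *Dysf* is inactivated in the *Dysf-/-* background, where it read 6.76 to 6.92 with the transgene and 6.76 to 6.90 without. Its rise of 0.30 in *F66* over *wt* did not pass with the t-test (adjusted p = 0.118) or with all rows tested (adjusted p = 0.117). With all rows tested, *Atp2a2*, *Orai2*, *Atp2b1*, *Dnm2*, *Cacnb4*, *Slc8a3*, *Pln*, *Dysf* and *Ank1* did not pass (adjusted p from 0.0702 to 0.268). *Stac2* lay at 6.78 to 7.06 in *F66;Dysf-/-* arrays, 5.83 to 5.90 in *F66* arrays, 5.74 to 5.90 in *Dysf-/-* arrays and 5.58 to 5.93 in *wt* arrays, so that 1 group of the 4 stood apart. *Homer1* lay at 7.85 to 7.94 in *F66;Dysf-/-* arrays and at 8.45 to 8.94 in the other 3 groups. With the mean of its rows *Atp2a2* was at 0.19 and did not pass (adjusted p = 0.372), and *Orai2* was at 0.92. The call of *Pln* was lost without *Dysf-/-* replicate 1, *F66* replicate 3, *F66;Dysf-/-* replicate 3, or *wt* replicate 1 or 2 (-0.55 to -0.47). That of *Ank1* was lost without *Dysf-/-* replicate 2 or 3, *F66* replicate 2 or 3, *F66;Dysf-/-* replicate 1 or 2, or any 1 *wt* array (-0.33 to -0.24). Groups of 3 arrays were not tested for single outlying values.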

How the results depend on the processing

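Over 27 alternatives, 1234 of 1320 values of the triad genes kept their side of the threshold, 71 were lost, 15 were gained and no called difference changed sign. For the named calcium handling genes 807 of 892 kept it and 85 were lost. Most of the 1320 values were of differences that did not pass in the main test, and only those that passed could be lost. Of 21 alternatives, the difference of transgene effects passed in 12 for *Cacna1s*, 10 for *Cacnb1*, 6 for *Cacng1* and 8 for *Trdn*. With all rows tested, 5 triad genes differed among the 6 groups, 1 in *F66* against *wt*, 0 in the difference of transgene effects and 3 in *F66;Dysf-/-* against *F66*. With arrays centred on their medians, 0 differed in the difference of effects and 5 in *F66;Dysf-/-* against *F66*. The calls over all 20259 genes were 2932 and 6046 there. With the compared groups alone, 2 differed in the difference of effects, against 3200 of all genes. The t-test after adjustment also gave 2 there, run as a contrast of the 4 groups without limma's moderation of the spread, and gave 1 in *F66* against *wt*. Its calls over all genes were 3035 and 692. At the study's threshold (p under 0.01 and over 2-fold) the t-test gave 0 triad genes in each comparison, since none changed 2-fold. Between 1 and 478 of all genes passed it per comparison. Leaving out 1 array gave 0 (without *F66;Dysf-/-* replicate 1) to 4 triad genes for the difference of effects, 4 (without the same array) to 8 for *F66;Dysf-/-* against *F66*, 6 to 7 for *F66;Dysf-/-* against *Dysf-/-*, 2 to 3 for *F66* against *wt* and 7 to 9 for any difference. In the same order, the calls over all genes were 2511 to 3168, 5376 to 6371, 5171 to 5939, 1908 to 2376 and 7614 to 10575. The cause of these changes was not tested. Over all genes, *F66* against *wt* gave 2759 calls, against 692 with the t-test and 1550 on its groups alone. *Dysf-/-* against *wt* gave 99, from 0 with the t-test to 128 without dim genes. ACVR2B/Fc-injected *Dysf-/-* against *Dysf-/-* gave 5, and 574 without ACVR2B/Fc-injected *Dysf-/-* replicate 1, and ACVR2B/Fc-injected *wt* against *wt* gave 6, from 0 to 12. The labels do not say that replicate numbers pair the arrays, and of 45 same-numbered pairs 7 had deviations correlated over 0.1 (r from -0.08 to 0.29, median 0.01), so the arrays were not treated as paired, although 11 of 18 were closest on average to their own number. With the replicate number as a block, 9 triad genes differed among the 6 groups and 3 in the difference of effects. Calls over all genes were 10631 and 3537 in these. *Cacng1* was lost in the difference of effects (0.37, adjusted p = 0.0556), and no other triad count changed. ACVR2B/Fc-injected *Dysf-/-* against *Dysf-/-* gave 87 calls over all genes with the block. Array medians shifted by -0.09 to 0.04 between groups. Signal over background was not assessed, so how far dim rows such as *Cacna1d* and *Stac2* lay above it is not known.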
